A study of Mus musculus with 6 samples.

Results

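Proenkephalin and 8 secreted factors that act on nerve cells were followed in fibroadipogenic progenitors (FAPs) from blood and muscle. The 9 genes were taken by name from a table of read counts for 33276 genes: the enkephalin precursor Penk, the neurotrophins Bdnf, Ntf3 and Ntf5, the GDNF family ligands Gdnf, Artn and Nrtn, and the heparin-binding growth factors Mdk and Ptn. They were chosen by gene family and with their counts in circulating against muscle libraries already known, so their levels are given as a description, without a test. FAPs are the mesenchymal progenitors of the muscle interstitium and can form fibroblasts and adipocytes. The groups were circulating FAPs, from peripheral blood (3 libraries), and muscle FAPs (3 libraries), all from mice with middle cerebral artery occlusion (MCAO), a stroke model made by blocking a brain artery. The labels enter MCAO under strain and give no background strain, age, sex, muscle, time after the occlusion or sorting markers, and no mouse without the occlusion was analysed. They do not say that the libraries of a group came from separate mice, so the spread between libraries may be technical.

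Neurotrophins are secreted dimers that keep neurons alive and guide their outgrowth through Trk receptor kinases and the pan-neurotrophin receptor Ngfr. GDNF family ligands bind a GFR-alpha co-receptor and signal through the kinase Ret. Midkine and pleiotrophin bind proteoglycans and receptors such as Ptprz1 and Alk, and proenkephalin is cut into small opioid peptides. In muscle, such factors are known for their action on motor and sensory nerve endings.

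In CPM, counts per 1000000, Penk, Ntf3 and Mdk were lower in every circulating library than in any muscle library. Gdnf was higher in every circulating library, and the groups overlapped for the other members. Relative to a background of silent genes, described below, the groups overlapped for Gdnf too, and Ptn and Artn were lower in every circulating library. This background was itself higher in each circulating library, which lowers circulating values on that scale. Before division by it, the groups overlapped for Ptn and Artn. Penk was the most abundant member per exon length in both groups. In circulating libraries Penk alone stayed more than 3 times above the background of silent genes in all 3 libraries, whereas in muscle libraries Penk, Ntf3, Mdk and Ptn did. Of the 9 members, 8 passed the filter on low counts, and Nrtn did not. Of these 8, 3 were without overlap in CPM on the lower side, where 11.4% of the 20248 genes tested were, and 1 on the higher side, where 16.2% were. Among tested genes under 2 CPM, the range of Gdnf, 25.9% were on the higher side. In the edgeR quasi-likelihood fit over all genes, 1 tested member (Penk) stood among the genes past the threshold on the lower side, which were 0.104% of those tested, and none among the 0.00494% on the higher side. As this contrast was known when the members were proposed, nothing is read from these counts. In bulk RNA, fewer cells that express a gene and less of its RNA per cell cannot be told apart.

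Library totals ran from 5522193 to 13813329 counts in circulating and from 17532558 to 23424039 in muscle libraries, and 18S ribosomal RNA took 42.9% to 60.1% of circulating and 27.8% to 32.3% of muscle counts. Small counts were mostly even: of counts between 1 and 4, 68.3% to 83.3% per library were even numbers, against 48.7% to 54.7% of counts from 100 to under 1000. Low counts may thus hold fewer separate fragments than reads, which was not tested. A count of 0 allows up to 3 counts in a library, or 0.219, 0.399 and 0.329 counts per 1000000 (CPM) in circulating replicates 1, 2 and 3 and 0.147 to 0.179 CPM in muscle libraries. These limits and all intervals cover counting error only. The summed level of 7 FAP markers was 9392 to 14873 CPM in circulating and 23814 to 30163 CPM in muscle libraries, and 5 of the 7 (Pdgfra, Dcn, Lum, Col1a1 and Col3a1) were lower in each circulating library. Of all tested genes of at least 20 CPM, 28.8% were lower in each circulating library than in any muscle library. Summed leukocyte markers stood at 93.6 to 119.7 CPM in circulating and 14.8 to 32.4 CPM in muscle libraries, with Ptprc, S100a9 and Csf1r among 9 markers higher in each circulating library. Of all 20248 tested genes 16.2%, and of those from 2 to under 20 CPM 16.8%, were higher in this way. The largest leukocyte marker differed between circulating replicates: S100a9 in 1 (69.8 CPM), Csf1r in 2 (32.3 CPM) and S100a8 in 3 (61.4 CPM). None of the 9 leukocyte markers was at 0 in all libraries of a group. Summed pericyte and smooth muscle markers stood at 39.8 to 51.8 CPM in circulating and 55.0 to 137.2 CPM in muscle libraries. Rgs5 was the 1 of 6 markers lower in each circulating library, where 11.4% of all tested genes were. Kcnj8, Abcc9 and Notch3 averaged lower with overlap. The smooth muscle genes Acta2 and Myh11 went the other way, also with overlap. They averaged 13.3 and 13.2 CPM in circulating, against 7.36 and 3.66 CPM in muscle libraries. Summed neuron markers overlapped, at 14.6 to 43.9 CPM in circulating libraries and 15.9 to 25.4 CPM in muscle libraries, as did satellite cell and muscle fibre, endothelial and erythroid markers. The part of these other cells' RNA in the members' values was not tested.

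Low genes need a background in these data. Receptor genes for pheromones (Vmn1r and Vmn2r), bitter taste (Tas2r) and trace amines (Taar), not expected to be expressed outside sensory cells, had a median of 0.824, 1.16 and 0.877 reads per kilobase of exon per 1000000 reads without 18S in circulating replicates 1, 2 and 3. In muscle replicates 1, 2 and 3 the same median was 0.330, 0.406 and 0.273. This background was higher in each circulating library than in any muscle library. A level over background is a member's reads per kilobase divided by this median in the same library. Fold changes moved with abundance in the same way: the median log2 fold change, circulating minus muscle, was 0.77 for 6540 tested genes under 2 CPM, 0.07 for 8972 genes from 2 to under 20 CPM and -0.65 for 4736 genes of at least 20 CPM. Over all tested genes it was 0.15.

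**Figure D1:**
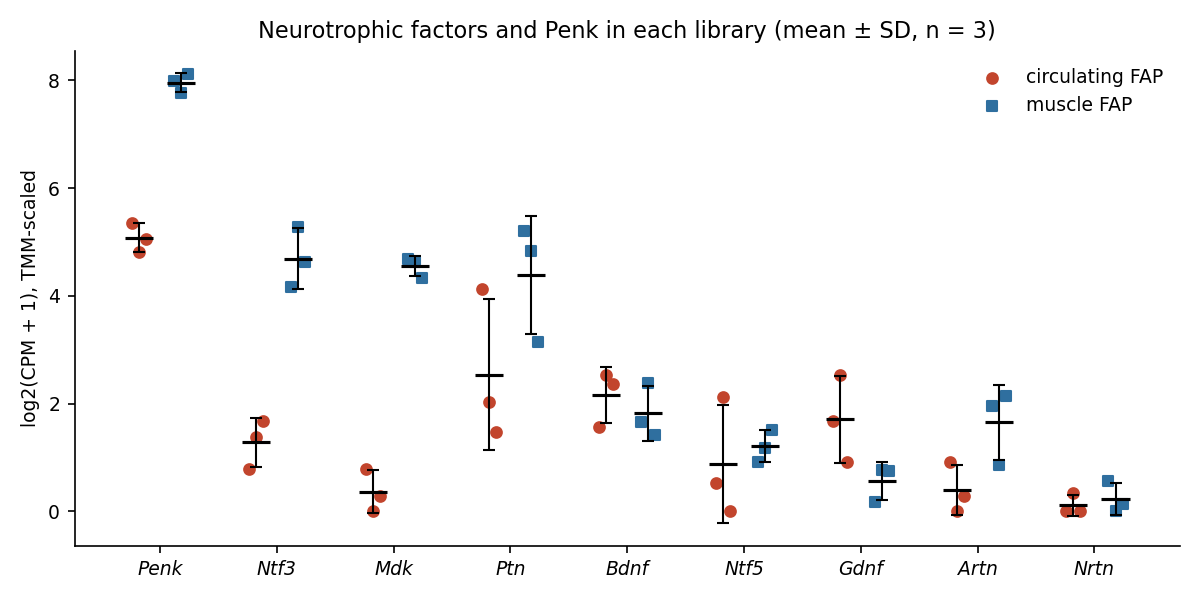
Level of each of the 9 members in each library, as log2(CPM + 1) with TMM scaling. Points are libraries, circulating FAPs left and muscle FAPs right of each gene, and bars are means with SD (n = 3). Penk, Ntf3 and Mdk lie lower and Gdnf higher in all 3 circulating libraries.

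Penk encodes proenkephalin, the precursor of Met- and Leu-enkephalin, peptides that act on delta and mu opioid receptors. It held 547, 205 and 295 reads in circulating replicates 1, 2 and 3, against 4231, 4258 and 5646 reads in muscle replicates 1, 2 and 3. In CPM these were 39.9, 27.3 and 32.4 in circulating libraries and 252.8, 216.2 and 276.1 in muscle libraries. The highest circulating library lay far under the lowest muscle library, and the libraries of each group lay close together. Mean levels were 33.2 ± 6.35 CPM in circulating FAPs and 248.3 ± 30.2 CPM in muscle FAPs (SD, n = 3 each), a log2 fold change of -2.90 ± 0.41 (SE). Among the settings tried the log2 fold change lay between -3.13 and -2.19.

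Counted per exon length and per 1000000 reads without 18S, Penk stood at 42.5, 40.4 and 42.6 in circulating libraries and at 197.1, 205.8 and 217.8 in muscle libraries, so that the circulating mean was 0.202 of the muscle mean. On this scale the spread within each group was small beside the gap. Its level over background was 51.6, 34.8 and 48.6 in circulating and 596.5, 506.6 and 798.2 in muscle libraries. Circulating FAPs therefore held Penk reads well above those of silent genes in each library. GENCODE M21 (GRCm38) places an exon of another gene, A830012C17Rik, on the opposite strand over Penk, and whether strand was used in counting is not given in the sources used here, so reads of the pair cannot be told apart.

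Relative to FAP marker reads the order was the same, free of any scaling between libraries. Per 1000 reads of the 7 FAP markers there were 2.68, 2.90 and 3.01 Penk reads in circulating libraries, against 8.38, 9.08 and 9.53 in muscle libraries. The circulating mean was 0.318 of the muscle mean, although most of the markers were themselves lower in circulating libraries. Per 100 reads of Pdgfra, the receptor that marks FAPs, there were 18.1, 14.3 and 16.8 Penk reads in circulating and 29.8, 47.4 and 52.5 in muscle libraries. Penk was thus lower in proportion than these FAP transcripts were.

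**Figure D2:**
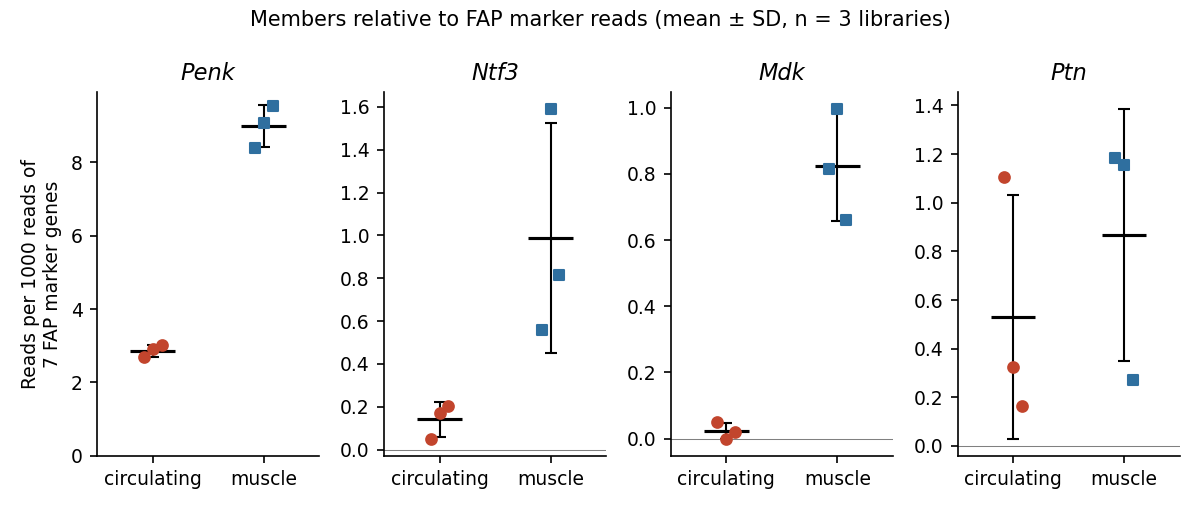
Reads of Penk, Ntf3, Mdk and Ptn per 1000 reads of 7 FAP marker genes, a ratio within each library. Points are libraries, circulating left and muscle right, and bars are means with SD (n = 3). Groups are apart for Penk, Ntf3 and Mdk and overlap for Ptn.

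Ntf3 encodes neurotrophin-3, the ligand of the receptor kinase TrkC and a survival factor of the sensory neurons that serve muscle spindles. It held 10, 12 and 20 reads in circulating libraries, against 282, 747 and 482 reads in muscle libraries. In CPM it was at 0.730, 1.60 and 2.20 in circulating and at 16.8, 37.9 and 23.6 in muscle libraries. All circulating libraries were low, and muscle replicate 2 was the highest of all. The means were 1.51 ± 0.737 CPM in circulating FAPs and 26.1 ± 10.8 CPM in muscle FAPs (SD, n = 3 each), with a log2 fold change of -4.12 ± 0.78 (SE) and a range of -4.61 to -3.42 over the settings tried. Its level over background was 0.898, 1.94 and 3.14 in circulating libraries, 1 of them just above 3 times the silent-gene level, and 37.9, 84.7 and 65.0 in muscle libraries. Per 1000 FAP marker reads there were 0.0491, 0.170 and 0.204 Ntf3 reads in circulating and 0.559, 1.59 and 0.813 in muscle libraries. The groups were apart on each of these scales.

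Bdnf, the brain-derived neurotrophic factor and a ligand of TrkB, was low in both groups. It held 27, 36 and 38 reads in circulating and 36, 83 and 34 reads in muscle libraries, or 1.97, 4.79 and 4.17 CPM in circulating and 2.15, 4.21 and 1.66 CPM in muscle libraries. The groups overlapped (log2 fold change 0.44 ± 0.59, SE), where tested genes from 2 to under 20 CPM, the range of its mean, had a median of 0.07. Over background it stood at 0.669 to 1.65 in circulating and 1.26 to 2.60 in muscle libraries. It lies on both sides of the silent-gene level in circulating libraries. Like Penk, Bdnf has an annotated exon of another gene (Gm45346) on the opposite strand.

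Ntf5, the mouse gene of a further TrkB ligand, was also low. It held 6, 25 and 0 reads in circulating and 15, 25 and 38 reads in muscle libraries, which is 0.438, 3.33 and 0 CPM in circulating and 0.896, 1.27 and 1.86 CPM in muscle libraries. Circulating replicate 2 was the highest of all 6 libraries and circulating replicate 3 the lowest. The log2 fold change was -0.16 ± 1.03 (SE), and its sign changed among the settings tried, with 9 values below 0 and 6 above, from -2.54 without circulating replicate 2 to 0.69 with scaling on abundant genes. Its level over background was 0 to 2.62 in circulating and 1.30 to 3.31 in muscle libraries.

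**Figure D3:**
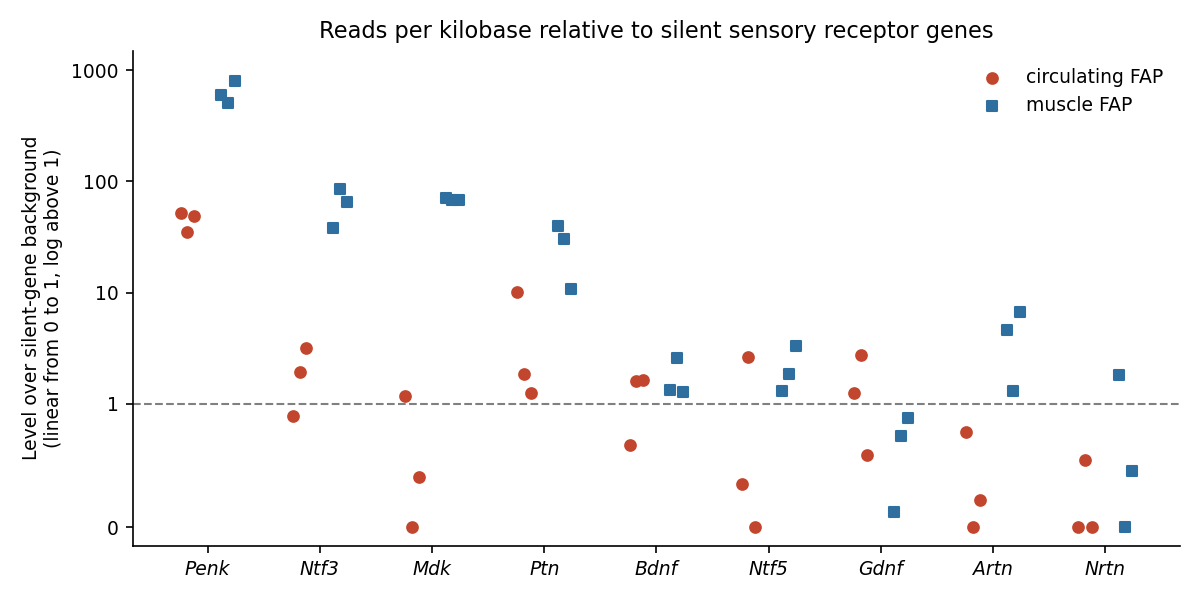
Reads per kilobase of exon of each member divided by the median of 557 silent sensory receptor genes in the same library. The vertical axis is linear from 0 to 1 and logarithmic above, the dashed line marks the silent-gene level, and circulating libraries stand left of muscle libraries. Penk is more than 3 times above the line in all 3 circulating libraries, and Ptn (10.1) and Ntf3 (3.14) in 1 circulating library each, while Penk, Ntf3, Mdk and Ptn are in all 3 muscle libraries.

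Mdk encodes midkine, a heparin-binding growth factor that is abundant in embryos and acts on neurite growth. It held 10, 0 and 2 reads in circulating libraries, against 412, 468 and 392 reads in muscle libraries. In CPM it was at 0.730, 0 and 0.220 in circulating and at 24.6, 23.8 and 19.2 in muscle libraries. The muscle libraries were close to each other, and the circulating libraries held few reads or none. The means were 0.316 ± 0.374 CPM in circulating FAPs and 22.5 ± 2.93 CPM in muscle FAPs (SD, n = 3 each). The fitted log2 fold change was -5.99 ± 1.04 (SE), with values from -7.55 to -5.40 over the settings tried. From the summed reads, 12 in circulating and 1272 in muscle libraries, the ratio was 0.0177 (95% exact interval 0.00912 to 0.0310). This interval takes each read as independent and leaves out the spread between libraries, so it is too narrow. Over background Mdk stood at 1.16, 0 and 0.407 in circulating and at 71.7, 68.7 and 68.4 in muscle libraries, so that circulating FAPs were at the level of silent genes.

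Ptn encodes pleiotrophin, the other member of the midkine family, and its libraries lay far apart within both groups. It held 225, 23 and 16 reads in circulating libraries, against 597, 541 and 160 reads in muscle libraries. That is 16.4, 3.06 and 1.76 CPM in circulating and 35.7, 27.5 and 7.82 CPM in muscle libraries. Circulating replicate 1 lay above muscle replicate 3, so the groups overlapped. The log2 fold change was -1.73 ± 0.95 (SE), and became -3.36 without circulating replicate 1. Over background, Ptn stood at 10.1, 1.86 and 1.25 in circulating and 40.1, 30.6 and 10.8 in muscle libraries, so that circulating replicate 1 was close to muscle replicate 3. Schwann cells, which wrap nerve fibres, are a known source of pleiotrophin; 9 Schwann cell markers summed to 22.2, 53.6 and 19.4 CPM in circulating and to 76.2, 66.8 and 28.8 CPM in muscle replicates 1, 2 and 3. Of these, S100b and Cdh19 were lower in each circulating library, Ncmap was higher, and Sox10, a defining marker, was at 0.266 to 0.878 CPM in circulating and 0 to 0.657 CPM in muscle libraries. Of all tested genes, 11.4% were lower and 16.2% higher without overlap. The part of Schwann cell RNA in the Ptn values was not tested.

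Gdnf, the glial cell line-derived neurotrophic factor, which acts on motor neurons through Gfra1 and Ret, was the member higher in circulating libraries. It held 30, 36 and 8 reads in circulating libraries, against 2, 14 and 14 reads in muscle libraries. In CPM it was at 2.19, 4.79 and 0.878 in circulating and 0.119, 0.711 and 0.685 in muscle libraries. The lowest circulating library was just above the highest muscle library. Of all tested genes under 2 CPM, 25.9% were higher in each circulating library in this way. The log2 fold change was 2.33 ± 0.79 (SE), from 1.49 to 3.07 over the settings tried, where tested genes under 2 CPM, the range of its mean, had a median of 0.77. The background of silent genes was higher in circulating libraries too, and relative to it Gdnf stood at 1.26, 2.72 and 0.586 in circulating and 0.125, 0.741 and 0.880 in muscle libraries. On that scale the groups overlapped, with circulating replicate 3 under muscle replicates 2 and 3.

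Artn encodes artemin, a Gfra3 ligand that acts on sensory and sympathetic neurons. It held 12, 0 and 2 reads in circulating and 48, 16 and 70 reads in muscle libraries, or 0.876, 0 and 0.220 CPM in circulating and 2.87, 0.812 and 3.42 CPM in muscle libraries. Circulating replicate 1 lay just above muscle replicate 2. The log2 fold change was -2.52 ± 0.92 (SE), and -4.30 without circulating replicate 1. Over background Artn stood at 0 to 0.768 in circulating libraries and at 4.60, 1.29 and 6.72 in muscle libraries, where the groups were apart.

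Nrtn, which encodes neurturin, a Gfra2 ligand, held 0, 2 and 0 reads in circulating and 8, 0 and 2 reads in muscle libraries. With 2 against 10 reads in all, the ratio was 0.375 with a 95% exact interval of 0.0400 to 1.76, which covers counting error only. A difference between the groups was not detectable at this depth.

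Per exon length, the order of the members differed between the groups below Penk. In circulating FAPs Penk averaged 41.8 ± 1.26 reads per kilobase per 1000000 reads without 18S, followed by Ptn at 3.86 ± 3.90, Ntf3 at 1.92 ± 1.05, Gdnf at 1.57 ± 1.40, Bdnf at 1.29 ± 0.671 and Ntf5 at 1.11 ± 1.67 (SD, n = 3). From Ptn down these lay within each other's spread. Mdk at 0.438 ± 0.484, Artn at 0.277 ± 0.324 and Nrtn at 0.210 ± 0.363 came last. In muscle FAPs Penk averaged 206.9 ± 10.4, followed by Mdk at 23.4 ± 4.63, Ntf3 at 21.6 ± 11.4 and Ptn at 9.54 ± 5.73. Mdk and Ntf3 did not differ beyond their spread, and Artn at 1.29 ± 0.683, Ntf5 at 0.692 ± 0.240, Bdnf at 0.613 ± 0.385, Nrtn at 0.239 ± 0.314 and Gdnf at 0.194 ± 0.136 were all low. The 9 members summed to 55.0, 53.5 and 49.0 on this scale in circulating and to 249.6, 283.2 and 260.6 in muscle libraries. Penk made up 77.2%, 75.5% and 87.0% of that sum in circulating and 79.0%, 72.7% and 83.6% in muscle libraries, so its share overlapped between the groups while the sum did not.

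**Figure D4:**
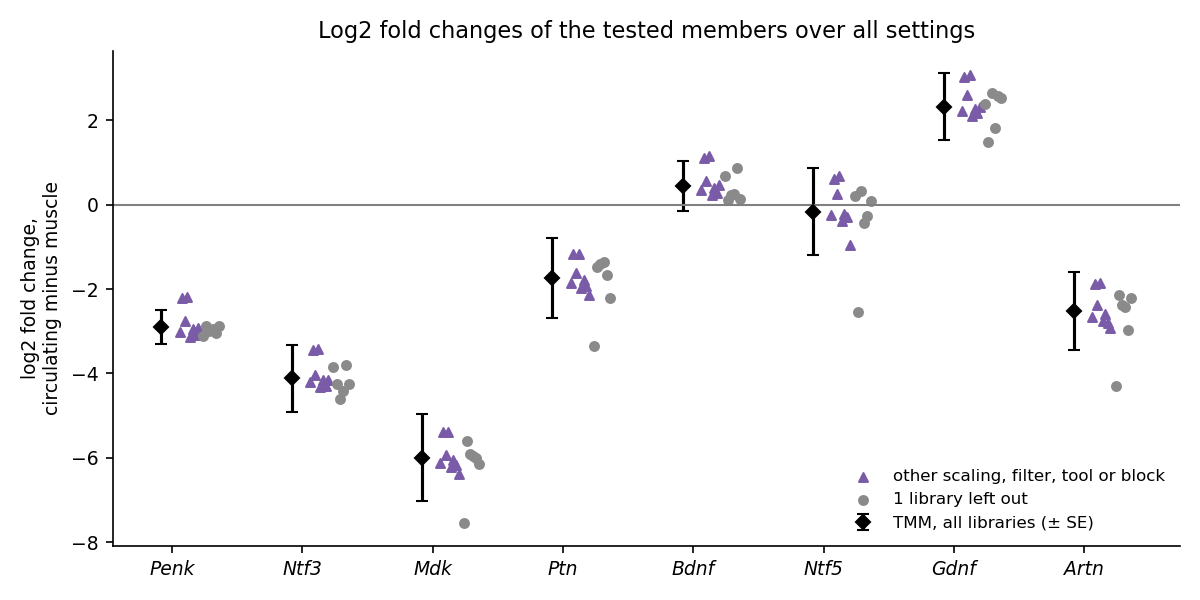
Log2 fold change, circulating minus muscle, of the 8 tested members. Black diamonds are the values of the text with SE, triangles other scalings, filters, tools or the replicate block, and grey points fits with 1 library left out. Penk, Ntf3, Mdk, Ptn and Artn stay below 0 and Bdnf and Gdnf above 0 in all 15 settings, while Ntf5 lies on both sides.

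Upstream sequences are shown for a neurotrophin that was lower in circulating FAPs (Ntf3), one that overlapped (Bdnf) and the ligand that was higher in CPM but overlapped relative to background (Gdnf). They come from RefSeq on GRCm38.p6, whose table held 14 start sites of 6 members (Artn, Bdnf, Gdnf, Nrtn, Ntf3 and Ptn). Each is the 250 bases before a start site, 5′ to 3′ on the gene's strand, and capitals mark the half-site TGACG of the cyclic AMP response element, or CGTCA, its other strand. The Ntf3 sequence is chr6:126164961-126165210 on the minus strand, that of Gdnf chr15:7809798-7810047 on the plus strand, and that of Bdnf chr2:109692186-109692435 on the plus strand, before one of 7 Bdnf start sites. Ntf3 and Gdnf have 2 start sites each in the table, and 1 of each is shown.
Ntf3: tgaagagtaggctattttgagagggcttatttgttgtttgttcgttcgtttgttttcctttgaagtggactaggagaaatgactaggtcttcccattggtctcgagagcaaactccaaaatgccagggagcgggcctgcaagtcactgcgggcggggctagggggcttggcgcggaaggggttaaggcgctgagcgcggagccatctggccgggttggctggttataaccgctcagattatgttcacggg
Gdnf: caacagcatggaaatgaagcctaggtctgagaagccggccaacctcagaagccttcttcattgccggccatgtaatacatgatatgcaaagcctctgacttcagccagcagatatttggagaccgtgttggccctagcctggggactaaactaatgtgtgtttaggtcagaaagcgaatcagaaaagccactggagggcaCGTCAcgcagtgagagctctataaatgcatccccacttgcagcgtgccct
Bdnf: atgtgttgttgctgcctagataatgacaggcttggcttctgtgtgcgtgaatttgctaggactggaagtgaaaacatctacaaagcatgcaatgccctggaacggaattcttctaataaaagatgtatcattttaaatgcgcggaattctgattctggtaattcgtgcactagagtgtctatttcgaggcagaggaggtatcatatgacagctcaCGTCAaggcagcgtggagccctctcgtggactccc
The half-site was found in 2 of the 14 member sequences, the Gdnf and Bdnf ones printed here, so that the other Gdnf sequence, the other 6 Bdnf sequences and both Ntf3 sequences lack it, and in 17.8% of 32851 such sequences of all genes. The full element TGACGTCA, which contains the half-site, was in none of the 14 and in 1.55% of all, and the AP-1 letters TGACTCA were in none of the 14 and in 4.46% of all, on either strand. These are matches of letters in a short window and say nothing of binding.

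The receptors, processing enzymes and relatives of the members were counted in 7 lists of 87 genes, of which 78 were tested. Like the members, the lists were chosen with earlier results of these data known, so nothing is read from their counts of calls. In edgeR with Benjamini-Hochberg adjustment over all genes, 1 of the 78 was lower in circulating FAPs (Fosb) and none was higher, where 0.109% of all tested genes passed. At an unadjusted p under 0.05 in edgeR, 17 of the 78 were lower and 4 higher, against 1952 lower and 1966 higher of all 20248 genes tested. The unadjusted counts of each list below are to be read beside these. DESeq2 called 13 lower and none higher of the 67 list genes that it gave an adjusted p, where it called 10.3% lower and 1.15% higher of the 13506 genes with one. The median log2 fold change over the 78 was -0.31, against 0.15 over all tested genes, and 20 were without overlap on the lower and 11 on the higher side, where 11.4% and 16.2% of all tested genes were. Both shares moved with abundance: 15 of the 40 list genes of at least 20 CPM were without overlap on the lower side and 2 on the higher, where 28.8% and 1.67% of all tested genes of that abundance were.

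**Figure D5:**
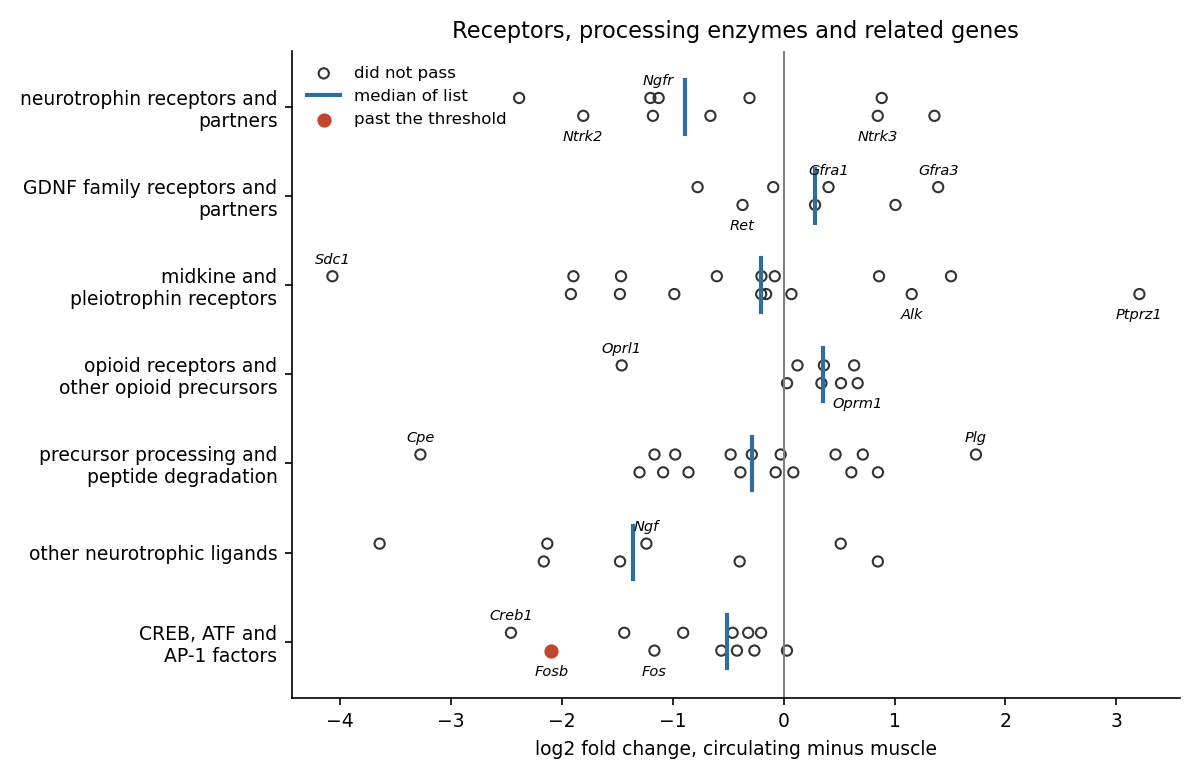
Log2 fold change, circulating minus muscle, of the 78 tested genes in 7 lists, 1 row per list. The filled point is Fosb, which passed the threshold, open points did not pass, and blue bars are list medians. Values run from Sdc1 at -4.07 to Ptprz1 at 3.21.

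Among neurotrophin receptors and partners none of 10 tested genes passed in edgeR (3 lower and 1 higher at an unadjusted p under 0.05). Ntrk2, which encodes TrkB, the receptor of Bdnf and Ntf5, averaged 59.7 ± 27.4 CPM in circulating FAPs, against 209.2 ± 88.0 CPM in muscle FAPs (SD, n = 3 each; log2 fold change -1.81 ± 0.50, SE, adjusted p = 0.155 in edgeR). Its groups did not overlap, with 1225, 265 and 497 reads in circulating and 5188, 3362 and 3009 in muscle libraries. Maged1, an adaptor that binds Ngfr, was at 93.1 ± 24.4 and 214.4 ± 33.0 CPM in circulating and muscle FAPs (-1.20 ± 0.39, adjusted p = 0.180 in edgeR). Ntrk3, which encodes TrkC, the receptor of Ntf3, stood at 19.0 ± 3.71 CPM in circulating FAPs, against 10.6 ± 1.03 CPM in muscle FAPs (adjusted p = 0.435 in edgeR), and its median level over background was 1.28 in circulating and 1.46 in muscle libraries. Ngfr held 31, 1 and 18 reads in circulating and 0, 104 and 92 reads in muscle libraries.

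None of the 7 GDNF family receptors and partners passed in edgeR (none lower and 1 higher at an unadjusted p under 0.05). Ret averaged 43.4 ± 28.4 CPM in circulating FAPs, against 56.1 ± 16.7 CPM in muscle FAPs (-0.37 ± 0.68, adjusted p = 0.766 in edgeR), with a median of 18.2 times background in circulating and 30.1 times in muscle libraries. Gfra2 was at 18.4 ± 22.9 and 19.6 ± 21.7 CPM, and Gfra1 at 12.4 ± 11.2 and 9.35 ± 3.75 CPM, in circulating and muscle FAPs. Gfra3, the artemin receptor, was at 2.10 ± 1.04 CPM in circulating and at 0.792 ± 0.115 CPM in muscle libraries (adjusted p = 0.226 in edgeR), with a median of 1.62 times background in both groups.

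None of 16 tested receptors of midkine and pleiotrophin passed in edgeR (5 lower and 1 higher at an unadjusted p under 0.05). The most abundant were Sdc2, a heparan sulfate proteoglycan, at 268.3 ± 49.2 CPM in circulating FAPs and 299.4 ± 21.1 CPM in muscle FAPs (adjusted p = 0.795 in edgeR), and the endocytic receptor Lrp1 at 250.7 ± 86.6 CPM in circulating and at 265.0 ± 17.1 CPM in muscle libraries (adjusted p = 0.910 in edgeR). Ptprz1, a receptor phosphatase, held 98, 73 and 910 reads in circulating and 67, 106 and 66 reads in muscle libraries. Circulating replicate 3 set its mean of 38.9 ± 52.8 CPM against 4.20 ± 1.09 CPM in muscle FAPs (adjusted p = 0.180 in edgeR). Over background Ptprz1 stood at 1.06, 1.42 and 17.2 in circulating and at 1.07 to 1.45 in muscle libraries. The kinase Alk was at 3.82 ± 1.45 CPM, a median of 0.824 times background, in circulating libraries and at 1.71 ± 0.334 CPM, or 0.983 times background, in muscle libraries.

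The mu, delta and kappa opioid receptors stood at less than 3 times background in every library, and none of the 8 tested genes of that list passed in edgeR (none in either direction at an unadjusted p under 0.05). Oprm1, the mu receptor, stood at 5.14 ± 0.279 CPM in circulating FAPs, against 3.23 ± 0.681 CPM in muscle FAPs, with a median of 1.38 times background in circulating and 1.72 times in muscle libraries. Oprd1, the delta receptor, had 1.03 ± 0.643 CPM in circulating libraries and 0.718 ± 0.863 CPM in muscle libraries, with a median of 0.421 times background in circulating and 0.458 times in muscle libraries. Oprk1, the kappa receptor, was at 4.06 ± 1.13 CPM in circulating libraries and 3.15 ± 1.38 CPM in muscle libraries. Oprl1, the nociceptin receptor, was named after its values were seen. It held 26, 27 and 15 reads in circulating and 278, 40 and 20 reads in muscle libraries, and stood at 17.1 times background in muscle replicate 1 but at 1.07 to 2.07 times in the other 5 libraries (adjusted p = 0.407 in edgeR). Ackr3, an atypical receptor that takes up chemokines and binds opioid peptides, was abundant, at 541.3 ± 115.3 CPM in circulating FAPs and 427.7 ± 91.0 CPM in muscle FAPs (0.34 ± 0.32, adjusted p = 0.552 in edgeR). Ogfr, the opioid growth factor receptor, was at 40.1 ± 28.5 CPM in circulating and at 36.7 ± 7.79 CPM in muscle libraries.

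Of 17 tested enzymes that process or degrade such precursors and peptides none passed in edgeR (3 lower and 1 higher at an unadjusted p under 0.05). Ctsl, a protease that can cut proenkephalin, averaged 444.6 ± 200.8 CPM in circulating FAPs, against 997.0 ± 323.2 CPM in muscle FAPs (-1.16 ± 0.39, adjusted p = 0.184 in edgeR). Ace, a peptidase that can degrade enkephalins, was at 385.4 ± 47.6 CPM in circulating and at 278.7 ± 78.1 CPM in muscle libraries (0.47 ± 0.34, adjusted p = 0.442 in edgeR). Cpe, the carboxypeptidase that trims neuropeptide and prohormone intermediates, was named after its values were seen. It held 209, 125 and 469 reads in circulating and 5986, 4234 and 4814 reads in muscle libraries (-3.28 ± 0.58, adjusted p = 0.0718 in edgeR), without overlap.

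Among 8 tested other neurotrophic ligands none passed in edgeR (3 lower and none higher at an unadjusted p under 0.05). Manf, a neurotrophic factor of the endoplasmic reticulum, stood at 59.4 ± 9.01 CPM in circulating FAPs, against 78.3 ± 44.8 CPM in muscle FAPs (adjusted p = 0.694 in edgeR).

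CREB, ATF and AP-1 factors, which are known to act at the Penk enhancer, had 1 of 12 tested genes lower in edgeR (3 lower and none higher at an unadjusted p under 0.05). Fosb, an AP-1 subunit, fell to 293.9 ± 26.5 CPM in circulating FAPs, against 1257 ± 262.3 CPM in muscle FAPs (-2.10 ± 0.29, adjusted p = 0.0341 in edgeR, n = 3 each); it passed under 7 of the 15 settings. It did not pass with upper quartile scaling, scaling on abundant genes or the replicate block, without circulating replicate 2 or 3, or without any 1 of the muscle libraries. Fos averaged 1073 ± 18.4 CPM in circulating FAPs, against 2407 ± 321.7 CPM in muscle FAPs (-1.17 ± 0.23, adjusted p = 0.0909 in edgeR), and Junb at 769.2 ± 158.0 CPM in circulating and at 1030 ± 244.4 CPM in muscle libraries (-0.42 ± 0.30, adjusted p = 0.429 in edgeR). These factors also respond to handling of cells, and their part in the Penk values was not tested.

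For each member at 10 CPM or more in its higher group, the 3 genes with the most similar profile over the 6 libraries were taken from 8008 genes, by the root mean square difference of log2 CPM after centring each gene. Nearest to Penk were Gnaq, a G protein subunit (0.144), Ppox, an enzyme of haem synthesis (0.173), and Cdc16, a subunit of the anaphase-promoting complex (0.198). Nearest to Ntf3 were Pear1 (0.460), Trim47 (0.485) and Tmem119 (0.494). Meox1, a homeobox factor, was nearest to Mdk (0.713), followed by Entrep3 (1.14) and Cyp2f2 (1.16). Dnajc9 (0.367), Gstm5 (0.475) and Ppp2r3c (0.489) were nearest to Ptn.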

How the data were processed

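Per the submitters' processing notes, reads were processed with Trim Galore, STAR and featureCounts on GRCm39. Versions, options and annotation are not given in the sources used here. The authors deposited raw counts of reads per gene symbol, 1 column per library. Per the labels' protocols, lysis was in RLT plus buffer and the library kit was transposase-based.

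Samples were grouped by their titles. Counts were fitted with the quasi-likelihood test of edgeR 4.0.16 (R 4.3.3, robust, TMM scaling, default filterByExpr, 20248 genes), circulating minus muscle, without a replicate block. P-values were adjusted by Benjamini-Hochberg over all genes with a threshold of 0.05. SE was taken as the absolute log2 fold change over the root of F. CPM uses TMM-scaled library sizes. Exon lengths came from GENCODE M21 (GRCm38) for 91.5% of symbols, and 557 of 590 silent receptor genes had one. Members and lists were chosen with earlier results of these data known. Genes named from a list are its 2 most abundant, those past the threshold and the classical receptors, except some not reported here; Cpe, Oprl1 and further genes labelled in the plot of the lists were chosen after their values were seen. Alternatives were 4 scalings, no filter, no 18S, DESeq2 1.42.0, a replicate block and leaving out each library.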

Additional observations from a re-analysis of the deposited data

How the results depend on the processing

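The direction of the log2 fold change of Penk, Ntf3, Mdk, Ptn, Artn, Bdnf and Gdnf was the same in all 15 settings, and that of Ntf5 was not. Penk passed the threshold under 7 of the 15 settings, Mdk under 4 and Ntf3 under 2 (DESeq2 and no filter). Penk did not pass with upper quartile scaling, scaling on abundant genes or the replicate block. It passed without circulating replicate 1, but not without any other 1 library. DESeq2 called 10.3% of its genes lower, against 0.104% in the reported edgeR fit. The members were proposed with this contrast known, so nothing is read from these calls. Upper quartile scaling moved the median of all genes by 0.67 and scaling on abundant genes by 0.70, so fold changes are relative to the scaling. Genes past the threshold numbered 21 lower and 1 higher; lower genes numbered 42 with RLE size factors, 1 with upper quartile scaling, 4 with scaling on abundant genes, 154 without a filter and 1387 with DESeq2, and higher genes 2 with library size only, 3 with scaling on abundant genes, 6 without a filter and 155 with DESeq2. Pathway genes past the threshold numbered 1, and 0 with upper quartile scaling or scaling on abundant genes, 2 with library size only, 5 without a filter and 13 with DESeq2. With the replicate block, 1 gene was lower, 0 were higher and 0 pathway genes passed. Same-numbered libraries hardly deviated together (correlations of 0.0095, 0.055 and 0.0070). The labels do not say whether equal numbers mark the same mouse. These correlations cannot decide it, because noise between libraries would also keep them small. With 1 library left out, 0 to 63 genes were lower, 0 to 2 higher and 0 to 1 pathway genes passed: without circulating replicate 1 there were 63 lower genes, without muscle replicate 3 none, and 1 in each other case. The cause was not tested. Counts under about 10 reads were held by Nrtn in all libraries and by Mdk, Artn and Ntf5 in some circulating libraries. Gdnf held such counts in circulating replicate 3 and muscle replicate 1. These low counts limit any statement on those genes.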
